A study of Mus musculus with 6 samples.

Results

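The Nrip1 locus was taken as the 600 kb of mouse chromosome 16 from 76,100,001 to 76,700,000 (build mm9), with the gene near 76.29 to 76.37 Mb. A Hi-C contact belonged to it if at least 1 of its bins of 5 kb had its midpoint in that interval. By this rule 1513 of the 3,654,010 listed pairs of bins on the nuclear chromosomes were contacts of the locus. The cells were P19, an embryonal carcinoma line of the mouse that forms neurons when treated with retinoic acid, grown as a monolayer. The 6 libraries made up 3 groups of 2: untreated cells (T0), and cells that had received all-trans retinoic acid (ATRA) at 1e-06 M, either 6 h (T6) or 48 h (T48) before. Untreated cells kept for 6 h or 48 h were not part of the comparison, so ATRA and time in culture cannot be told apart. Whether the replicates were separate cultures is not stated in the labels, and p-values therefore cover the spread between these libraries alone, which may be technical. Contact counts hold no expression markers, so the cell type label could not be checked in these data.

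Nrip1 encodes RIP140, a corepressor that binds nuclear receptors, the retinoic acid receptors among them, when their ligand is present. It recruits histone deacetylases and CtBP proteins and so limits transcription by those receptors. The gene is itself induced by retinoic acid in human embryonal carcinoma cells, which makes it part of a negative feedback in retinoid signalling. Its coding sequence lies in a single exon, behind a long stretch of noncoding exons and introns. In Hi-C, neighbouring DNA ends of crosslinked chromatin are ligated and the junctions counted by paired sequencing, so a contact between distant bins records spatial proximity. Such contacts are one of the ways in which distant enhancers are linked to promoters.

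The gene is read from the minus strand, so its promoter end lies at the higher coordinates and "upstream" here means higher coordinates. Of the protein-coding neighbours, Samsn1 lies on the lower-coordinate side and Usp25, a ubiquitin-specific protease gene, on the upstream side, by the order of genes in RefSeq's GRCm38.p6 annotation. RefSeq holds 2 promoters of Nrip1, each given below from 250 bases before to 50 bases after the transcription start. They are shown because the contacts of the promoter end are followed through the time course below. Their coordinates are of build GRCm38.p6 and are not interchangeable with the mm9 bins. Capitals mark the GC box GGGCGG, a sequence bound by Sp1, which occurred as 2 overlapping copies in promoter 2.
Nrip1 promoter 1, chr16:76373778-76374077, minus strand: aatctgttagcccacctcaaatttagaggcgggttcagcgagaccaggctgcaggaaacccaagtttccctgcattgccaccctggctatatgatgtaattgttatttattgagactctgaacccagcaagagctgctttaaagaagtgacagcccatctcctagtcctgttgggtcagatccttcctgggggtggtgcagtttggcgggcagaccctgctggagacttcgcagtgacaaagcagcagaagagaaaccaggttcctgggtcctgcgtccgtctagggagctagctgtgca
Nrip1 promoter 2, chr16:76373000-76373299, minus strand: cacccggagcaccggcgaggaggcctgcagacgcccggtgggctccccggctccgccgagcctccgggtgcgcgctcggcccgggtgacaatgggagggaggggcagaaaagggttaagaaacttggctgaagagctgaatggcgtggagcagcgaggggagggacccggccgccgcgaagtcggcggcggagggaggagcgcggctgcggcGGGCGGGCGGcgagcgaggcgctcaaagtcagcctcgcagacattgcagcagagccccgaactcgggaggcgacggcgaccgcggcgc
Promoter 2 is rich in G and C (73.3%) and holds 40 CpG dinucleotides, and promoter 1 has a GC content of 52.7% with 6 CpG. The GC box was found on either strand in 35.7% of all 32,851 RefSeq promoters of the same length. Both windows were searched on both strands for AGGTCA and AGTTCA, which are among the half-sites bound by retinoic acid receptors. Neither of these words occurred in them, while 16.3% of all promoters held AGGTCA and 14% held AGTTCA. Other forms of the half-site were not searched, so the absence of these words does not show that the promoters lack half-sites. Direct repeats built from these words, with 1, 2 or 5 bases between them, were not found in these letters either, and each form occurred in at most 0.0396% of all promoters.

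The authors' list gives a raw count of read pairs in each library for each pair of bins that was called significant in both replicates at a time point. A pair that is not listed at a time point has a 0 in both replicates, which is not a measured absence of contact. The T0 list held 662 pairs of the locus, the T6 list 579 and the T48 list 703. The number listed at T48 was thus 1.06 times that at T0, and the T6 number 0.875 times. Over all nuclear chromosomes the corresponding ratios were 0.955 and 0.846. Among the 4212 windows of 600 kb with at least 100 pairs at T0, 73.4% had a lower ratio at T48 than the locus and 70.6% had a lower one at T6. Pairs with both bins inside the 600 kb numbered 319, 289 and 271, so that their T48 number was 0.850 times that at T0 and the higher total at T48 lay in pairs that reach outside. The lists are joint over replicates, so these numbers have no replicate error. Listed counts at the locus summed to 11,167 and 6991 (T0), 10,247 and 6173 (T6) and 10,921 and 7678 (T48), for replicates 1 and 2. Listed pairs had a median count of 7 in each replicate 1 and 5 in each replicate 2, so single contacts rest on few reads. Unlisted read pairs are not in these sums, which are therefore below the sequencing depth.

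Most contacts of Nrip1 and its flanks were listed at a single time point. There were 418 such contacts at T0, 319 at T6 and 463 at T48, together 79.3% of the 1513 pairs against 68.3% for all chromosomes. Another 118 pairs, 7.80%, were listed at all 3 time points, against 14.9% for all chromosomes. T0 and T48 shared 171 pairs, which were 25.8% of the T0 list and 24.3% of the T48 list, and for all chromosomes these shares were 40.9% and 42.8%. A list of pairs with either bin in a stretch takes in more long pairs than a list that counts each pair once, so these shares are not of like lists. Of the 619 pairs with both bins in the locus, 71.9% were listed at a single time point and 13.9% at all 3, close to the values of all chromosomes. Distances depend on the rule in the same way. The median distance was 290 kb at T0, 265 kb at T6 and 345 kb at T48 with either bin in the locus, and 50, 40 and 30 kb with both, against 75, 75 and 85 kb for all chromosomes. Pairs at least 500 kb apart made up 23.9%, 23.3% and 24.8% of the locus lists by the first rule, and 11.6%, 11.4% and 15.2% of the lists of all chromosomes.

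**Figure D1:**
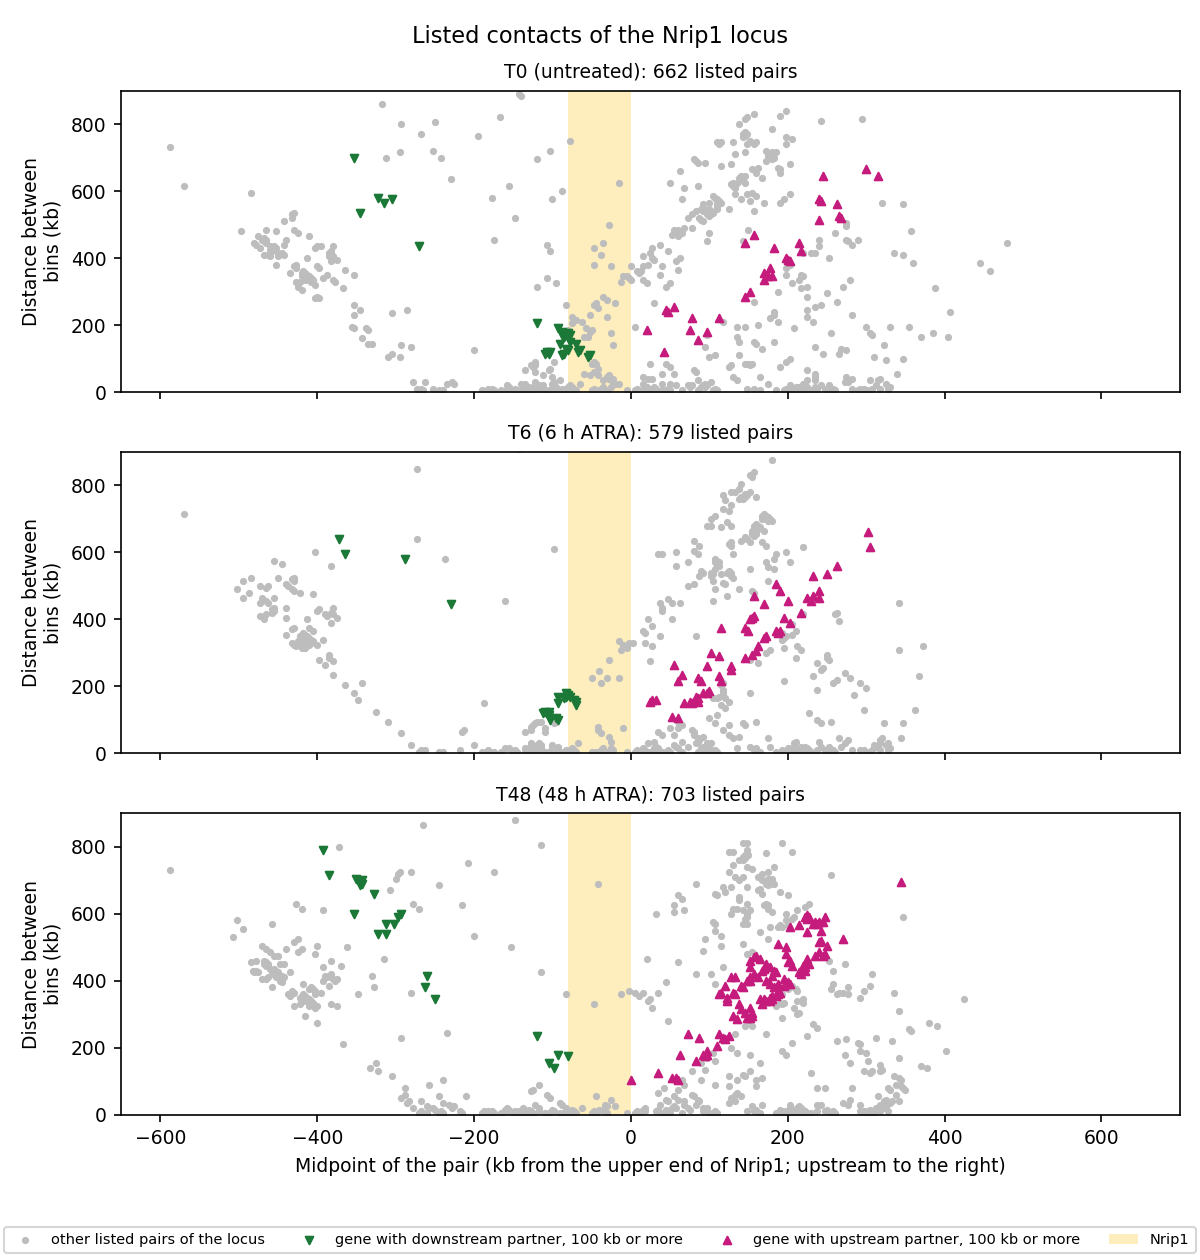
Listed contacts of the Nrip1 locus at T0, T6 and T48, each pair of 5 kb bins as a point at its midpoint (horizontal axis, kb from the upper end of Nrip1) and the distance between its bins (vertical axis, kb; pairs beyond the axes are not drawn). Magenta triangles are contacts of the gene with partners at least 100 kb upstream, 34 at T0, 60 at T6 and 118 at T48, green triangles those with partners as far downstream, 29, 22 and 22, and grey points all other pairs.

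Of the contacts of Nrip1 itself, those with distant upstream partners differed most between the lists. The gene with its promoter end, a stretch of 90 kb (chr16:76290001-76380000), had 34 listed partners at least 100 kb upstream at T0, 60 at T6 and 118 at T48. On the downstream side it had 29, 22 and 22. Scaled to the number of pairs at least 100 kb apart in each list, the upstream number was 2.07 times the T0 number at T6 and 3.42 times at T48. This side was singled out after the values had been seen and has no test. In the same count over the genome, 48,265 sides of 90 kb tiles had at least 20 such partners over the 3 time points. Of these, 2.34% were at least 2-fold higher at T6 and 5.05% at T48, and 2.59% and 5.61% were at least 2-fold lower. Shares at least as far above T0 as Nrip1 were 1.95% and 0.653%, in which sides below T0 are not counted.

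The read counts of these upstream contacts were 213 and 147 (T0), 381 and 279 (T6) and 703 and 515 (T48). Scaled to the library's sum of listed counts this was, in counts per 1e+06 (listed CPM), 4.25 and 4.96 (T0), 9.39 and 12.1 (T6) and 16.2 and 17.4 (T48). Both libraries of each later time point lay above both of the earlier one. The means were 4.60 ± 0.503, 10.8 ± 1.93 and 16.8 ± 0.894 (SD, n = 2). Downstream, the values were 5.04 and 5.67 (T0), 4.24 and 5.39 (T6) and 2.55 and 3.15 (T48), with T48 below the other two time points. With bins under 100 kb away the gene had 49 contacts in the T0 list, 35 in the T6 list and 33 in the T48 list. Their listed CPM were 34.8 ± 1.61, 31.1 ± 0.775 and 27.9 ± 0.214, and no library of a later time point reached one of an earlier one. All contacts of the gene together came to 44.8 ± 2.56, 46.7 ± 3.52 and 47.5 ± 1.53 listed CPM, and their ranges overlap. The SDs do not include the listing itself, which was decided once for both replicates.

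**Figure D2:**
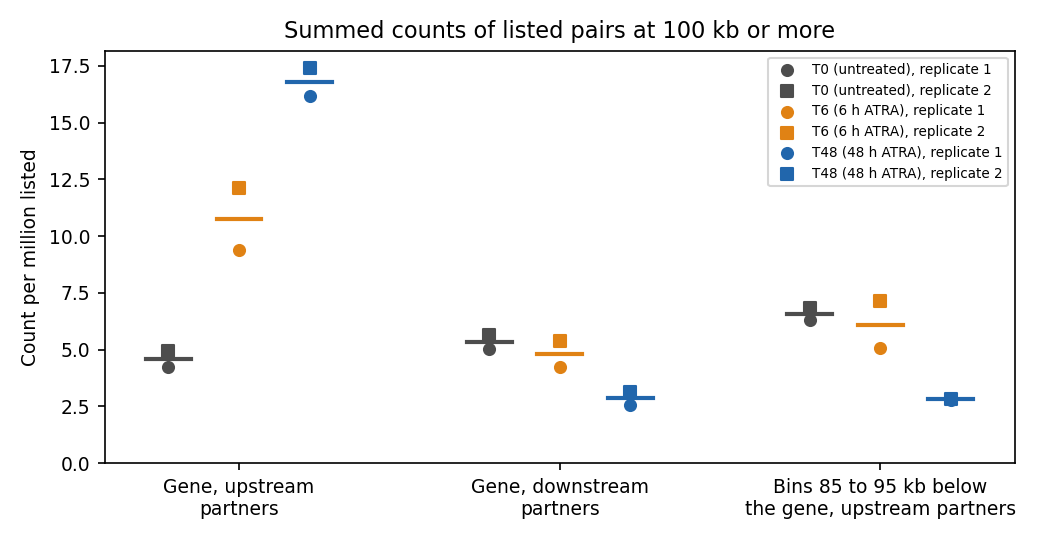
Listed CPM in each library for partners at least 100 kb away, upstream and downstream of Nrip1 and on the higher-coordinate side of the bins chr16:76195001-76205000; points are libraries and short lines are the means of 2. Upstream contacts of the gene run from 4.25 in the lowest T0 library to 17.4 in the highest T48 library, while the other classes are lowest at T48.

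The difference rests on which upstream partners were listed. The 4 upstream pairs listed at all 3 time points summed to 26 and 17 raw counts (T0), 30 and 17 (T6) and 29 and 17 (T48). These counts are not scaled to the library's listed sum, which was lowest at T6 for either replicate number. With so few pairs they do not show whether the strength of shared contacts differed. In a stricter list, where both replicates had to reach 1.5 times the lowest count of their distance, 3 upstream partners were left at T0, 6 at T6 and 11 at T48. Most of the difference therefore lies in pairs with at least 1 replicate below 1.5 times that lowest count. Over the genome, 27,869 sides of 90 kb tiles had at least 5 partners in the stricter list over the 3 time points. Of these, 13.9% were at least 2-fold higher at T6 and 18.0% at T48. Shares at least as far above T0 as Nrip1 were 9.26% and 7.60%, against 1.95% and 0.653% in the full lists. With partners at least 200 kb away, the upstream numbers were 29, 45 and 107. Of 39,433 tile sides with at least 20 such partners, 5.32% at T6 and 1.08% at T48 were at least as far above T0. The lower downstream number did not hold in the stricter list, with 1, 2 and 3 partners, and at 200 kb or more, with 7, 4 and 18, it held at T6 and not at T48.

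Most upstream partners at T48 lay in a single stretch. The 5 windows of 50 kb with the most of them, adjoining between 76,650,001 and 76,900,000, held 20 contacts of the gene in untreated cells, 30 at T6 and 92 at T48. The window at 76,700,001 alone had 6, 10 and 25, and the one at 76,750,001 had 6, 6 and 22. Both the promoter end, with 5, 5 and 13, and the rest of the gene, with 1, 5 and 12, contributed to the window at 76,700,001. The stretch reaches past the upstream edge of the locus, on the side of Usp25. On the other side, the window chr16:76200001-76250000 had held 17 contacts of the gene at T0 and 14 at T6, and 2 were listed at T48, all at least 100 kb long. Downstream windows from 75,550,001 to 75,950,000 had 6, 4 and 17 contacts, and the median distance of downstream partners was 150 kb at T0, 157.5 kb at T6 and 570 kb at T48. Beyond 100 kb, the gene's nearer downstream contacts were thus fewer at T48 and its distant ones more. These windows were chosen after their values were seen.

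**Figure D3:**
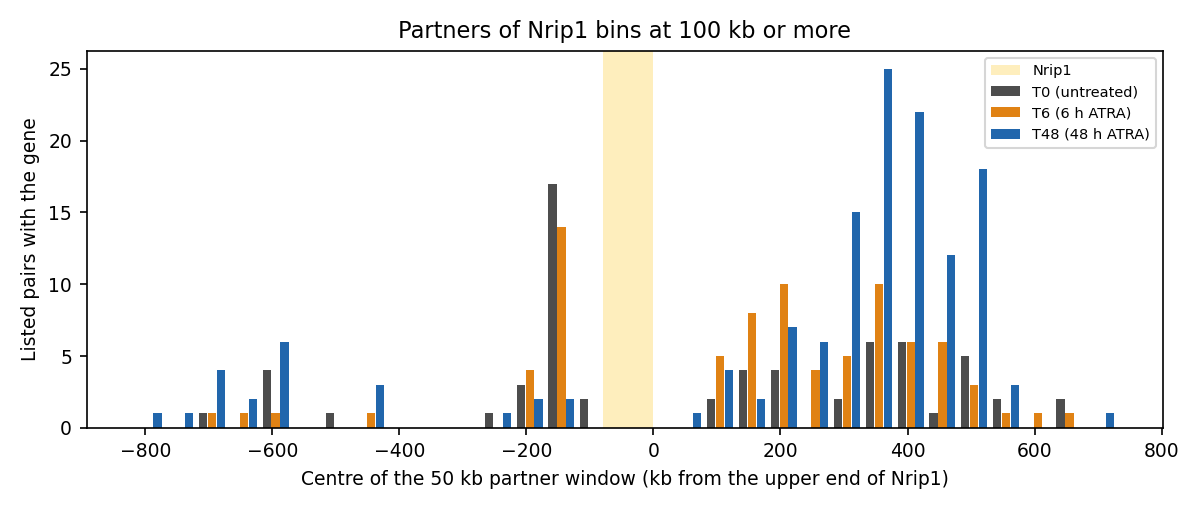
Bars give the number of listed contacts of Nrip1, promoter end included, with partners at least 100 kb away in each 50 kb window (horizontal axis, kb from the upper end of Nrip1) at T0, T6 and T48; 2 pairs with windows farther upstream are not drawn. Contacts at T48 are concentrated in the 5 upstream windows that hold 92 contacts of the gene, and the downstream window with 17 contacts at T0 has 2 at T48.

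The pattern was spread along the gene. Listed contacts were found for 13 of its 18 bins, and 12 of them had more upstream partners at T48 than at T0, with 1 having fewer. At T6, 8 had more, 1 had the same number and 4 had fewer. In the gene body the bin at 76,315,001 had 0, 5 and 11 upstream partners, the bin at 76,320,001 had 1, 6 and 12, and the bin at 76,340,001 had 0, 3 and 9. The exception was the bin at 76,335,001, with 3, 4 and 2. Neighbouring bins are not replicates of each other.

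The promoter end, 4 bins from 76,360,001 to 76,380,000, had the same course. It had 18, 34 and 57 upstream partners at least 100 kb away at T0, T6 and T48, with 2.51 ± 0.169, 6.61 ± 1.05 and 8.78 ± 0.317 listed CPM (SD, n = 2). Its downstream partners numbered 14, 11 and 11. The rest of the gene had 16, 26 and 61 upstream, with 2.09 ± 0.335, 4.15 ± 0.888 and 8.02 ± 0.577 listed CPM. In listed CPM the promoter end stood nearer its T48 level than its T0 level at 6 h, and the rest of the gene nearer its T0 level. In numbers of upstream partners both stood nearer T0 at 6 h, so this difference depends on the measure, and it was not tested. Counting partners at all distances, the bin at 76,370,001 had 17, 15 and 27 and the bin at 76,375,001 had 11, 21 and 26. The other promoter bins differed less in these totals, with 13, 9 and 12 at 76,360,001 and 13, 14 and 15 at 76,365,001. Upstream partners at least 100 kb away numbered 4, 3 and 10 at 76,360,001 and 1, 10 and 9 at 76,365,001. They numbered 7, 9 and 19 at 76,370,001 and 6, 12 and 19 at 76,375,001. Downstream partners as far away numbered 6, 1 and 4 at 76,365,001.

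The tiles beside Nrip1 had mixed courses. The tile next to the gene on its upstream side (76,380,001 to 76,470,000) had 44, 34 and 56 partners at least 100 kb upstream, and the next one had 22, 17 and 16. The downstream tiles at 76,110,001 and 76,200,001, which look across the gene to the same region, had fewer partners at T48 than at T0, with 98, 76 and 58 and with 87, 72 and 58 partners on their higher-coordinate side. On its lower-coordinate side the tile at 76,200,001 had 5, 8 and 15 partners, a scaled log2 ratio of 0.87 at T6 and 1.49 at T48 from low numbers. In the stricter list the tile next to the gene had 2, 2 and 6 upstream partners. The tiles were not tested against the gene, so the upstream difference is not shown to be particular to it.

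The flank downstream of Nrip1 held the busiest bins. Of the 120 bins of the locus, 33 had no listed contact at any time point, and the 5 with the most were 4 bins of the downstream flank and 1 promoter bin, at 76,370,001. A first pair of adjoining bins, chr16:76125001-76135000, had 33, 25 and 26 partners at least 100 kb away on its lower-coordinate side at T0, T6 and T48. Their listed CPM were 5.71 ± 0.089, 5.06 ± 0.205 and 4.84 ± 0.008 (SD, n = 2). Of these partners 15, 12 and 11 lay between 75,750,001 and 75,800,000. The 4 long contacts with the highest mean count, named by a rule, were all of this kind. The contact of the bins at 75,775,001 and 76,125,001, 350 kb apart, had 16 and 10 counts (T0), 13 and 7 (T6) and 14 and 9 (T48). That of 75,775,001 with 76,130,001 had 20 and 12, 13 and 7, and 14 and 7. Both contacts were listed throughout. In CPM of the shared pairs, the second had 0.699 and 0.733 (T0), 0.504 and 0.501 (T6) and 0.561 and 0.422 (T48), with T0 above all later libraries, and its log2 ratio of -0.50 at T6 and -0.49 at T48 did not pass the test (adjusted p = 1.00 and 0.971 by edgeR).

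A second pair of bins, chr16:76195001-76205000, looked in the other direction. It had 44 partners at least 100 kb away on its higher-coordinate side at T0, 32 at T6 and 19 at T48. Listed CPM were 6.32 and 6.85 (T0), 5.05 and 7.13 (T6) and 2.78 and 2.84 (T48), so both T48 libraries lay below the other 4. The 2 bins had 25, 21 and 16 and 29, 27 and 15 contacts at all distances. The nearby bins at 76,180,001 and 76,190,001, the largest losses in number of contacts at T48 by the naming rule, went from 21 and 27 contacts at T0 to 9 and 11. The listed CPM of the first were not lower, with 4.55 and 5.30 at T0 and 6.87 and 5.31 at T48. Those of the second were 7.12 and 7.39 at T0 and 5.06 and 5.62 at T48.

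Across the locus, 76 bins had at least 20 contacts over the 3 time points. After scaling to list length, 9 of them (11.8%) had at least 2-fold more contacts at T48 than at T0 and 2 (2.63%) at least 2-fold fewer. Over all such bins of the genome these shares were 3.87% and 3.03%. At T6, 4 bins (5.26%) were higher and 1 (1.32%) lower, against 2.7% and 2.68%. The median log2 ratio at T48 was 0.68 for the 13 gene bins, -0.28 for 26 bins of the downstream flank and -0.037 for 37 bins of the upstream flank. The largest gains were at 76,465,001, upstream of the gene, with 1, 9 and 15 contacts, and at 76,565,001 with 2, 13 and 9. In the gene, the bin at 76,340,001 had 5, 6 and 15 contacts and the bin at 76,320,001 had 6, 13 and 17. The largest losses at T6 were at 76,155,001, with 20, 8 and 16 contacts, and at 76,350,001 and 76,405,001, both with 14 contacts at T0 and 6 at T6. Inside the gene the largest loss at T48 was at 76,335,001, with 11, 7 and 5 contacts.

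**Figure D4:**
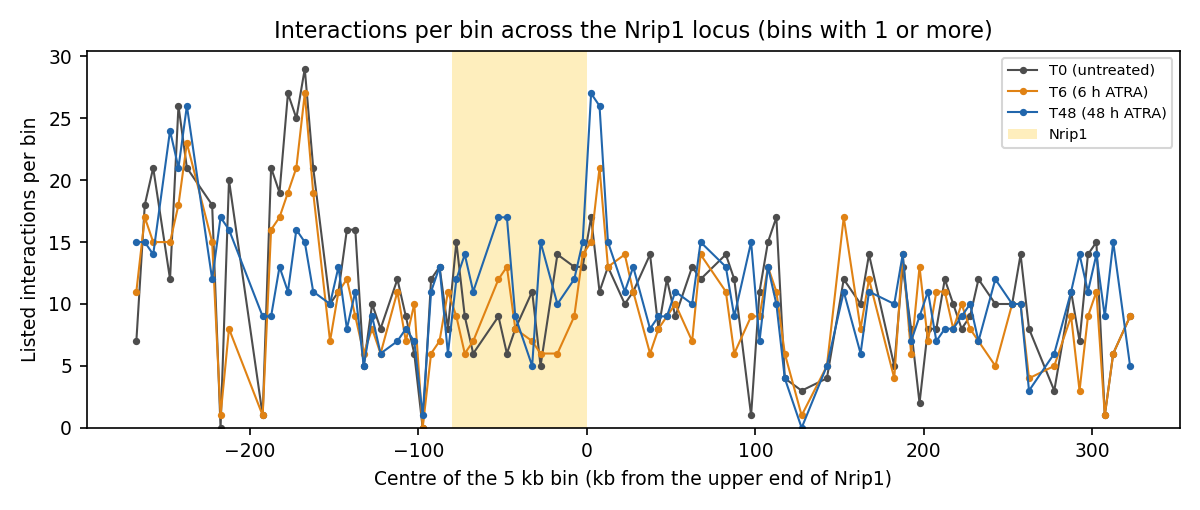
Number of listed contacts of each 5 kb bin of the locus with at least 1 (horizontal axis, kb from the upper end of Nrip1) at T0, T6 and T48, with Nrip1 shaded. The downstream flank holds the highest bins at T0, up to 29 contacts, and several gene and promoter bins are highest at T48, up to 27.

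The same differences appeared as shares of the locus's own listed count, in which the library total cancels. Here a flank is all of the chromosome beyond the gene on that side, also outside the 600 kb, unlike the flank bins counted above. The window at 76,700,001, past the upstream edge of the locus, alone had 6, 10 and 25 contacts of the gene. Contacts of the gene with the upstream flank held 3.98% and 4.33% of it (T0), 5.87% and 6.29% (T6) and 8.17% and 8.41% (T48). The T0, T6 and T48 groups did not overlap, with means of 4.16% ± 0.253, 6.08% ± 0.297 and 8.29% ± 0.174 (SD, n = 2). Contacts of the gene with the downstream flank held 6.15% ± 0.125, 4.80% ± 0.521 and 3.63% ± 0.195, and contacts within the gene 9.22% ± 0.194, 7.05% ± 0.231 and 6.69% ± 0.220. Contacts that joined both flanks across the gene held 10.9% ± 1.39, 7.96% ± 1.57 and 6.68% ± 0.666. All other pairs, those of a flank without the gene or the opposite flank, held 69.6% ± 1.72, 74.1% ± 2.16 and 74.7% ± 0.815, the largest difference of a class in percentage points at T48 (5.15, against 4.14 for the gene with the upstream flank). The classes sum to the whole, so their shares are not independent. A pair is listed for both replicates at once, so the shares largely restate the numbers of listed pairs and are no separate support. For upstream partners of the gene at 100 kb or more, the mean count per listed pair was 6.26, 6.35 and 5.96 in replicate 1 at T0, T6 and T48. In replicate 2 it was 4.32, 4.65 and 4.36. In numbers of listed pairs the 5 classes held 42, 66 and 124, then 45, 35 and 32, then 25, 16 and 17, then 205, 145 and 143, and finally 345, 317 and 387. For each of these 5 classes the T0 and T48 libraries did not overlap, and the exact two-sided permutation test gave p = 0.333, the smallest that 2 libraries against 2 allow. Among pairs listed at all 3 time points, the gene's share with the upstream flank was 2.92%, 2.81% and 2.60%, with no rise. Only 4 of these pairs were at least 100 kb long, with 26 of the 155 counts in T0 replicate 1. This share is therefore mainly of shorter pairs, unlike that of the full lists at T48.

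The strength of contacts was tested on the pairs that all 3 lists share, by edgeR's quasi-likelihood test fitted over the whole genome and Benjamini-Hochberg adjustment. Of the 118 such pairs at the locus 96 passed the filter on low counts, and 0 of them passed an adjusted p of 0.05 in any of the 3 comparisons. Over the genome 0% of 496,203 pairs passed. At an unadjusted p under 0.05 there were 6 locus pairs for T6 over T0, 4 for T48 over T0 and 2 for T48 over T6, against 3.17%, 5.52% and 5.06% of all pairs. DESeq2 and edgeR with a replicate block also called 0 pairs at the locus, with 0.000202%, 0.0189% and 0.0149% of all pairs called by DESeq2 and 0%, 0.000202% and 0.000202% with the block. The median log2 ratio of the locus pairs was 0.089 at T6 and 0.045 at T48, against -0.0016 and 0.0010 for all pairs. Only 8 of the 30 shared pairs at least 100 kb apart could be tested, so this test speaks mainly of short contacts.

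Summed over the 600 kb, the shared pairs gave 194 and 202 CPM (relative to the sum over all windows) in untreated cells, 208 and 220 after 6 h, and 205 and 209 after 48 h. The log2 ratio was 0.11 (SE 0.039, adjusted p = 1.00) for T6 over T0 and 0.064 (SE 0.038, adjusted p = 0.464) for T48 over T0 in edgeR's test. None of the 4255 windows of this size was called, 0%, in edgeR, where 1.65%, 16.5% and 11.8% had an unadjusted p under 0.05 for T6 over T0, T48 over T0 and T48 over T6. DESeq2 called 0.047%, 7.57% and 3.2% of them, and edgeR with a replicate block 0%, 16.8% and 8.34%, the locus not among them in either case.

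In windows of 50 kb, 9 of the 12 at the locus had a log2 ratio above 0 for T6 over T0 and 7 for T48 over T0. Their medians were 0.15 and 0.085, against -9.3e-05 and 0.0036 for all windows. All 12 windows were tested, and 0 passed an adjusted p of 0.05 in edgeR's test, where 0% of 49,387 windows passed for T6 over T0, 0.0263% for T48 over T0 and 0.0182% for T48 over T6. At an unadjusted p under 0.05 there were 3 of the 12 locus windows for T6 over T0 and 0 for each of the other comparisons. Over all windows the shares were 1.73%, 8.59% and 6.72%. Without pairs under 15 kb, 0 of 10 locus windows had such a p for T6 over T0 in edgeR, against 2.35% of all windows. DESeq2 called 0.0324%, 0.235% and 0.168% of all windows and the replicate block 0.0243%, 0.628% and 0.391%, with 0 at the locus in both. The window of the promoter end, chr16:76350001-76400000, had 11.6 and 13.7 CPM (T0), 13.4 and 13.4 (T6) and 12.5 and 11.7 (T48), over 11 shared pairs. Its log2 ratio was 0.090 (SE 0.11) at T6 and -0.053 (SE 0.11) at T48, adjusted p = 1.00 and 0.936 in edgeR's test, and T0 overlapped both. The sign of either ratio turned when a T0 library was left out, to -0.028 at T6 without replicate 1 and 0.063 at T48 without replicate 2. In the full lists the same window had 94, 96 and 122 contacts. The window at 76,650,001, the first of the stretch with most upstream partners at T48, had the largest ratio at T6, 0.32 (SE 0.092, adjusted p = 1.00 by edgeR). It was -0.26 without pairs under 15 kb. The window at 76,150,001 had the largest at T48, 0.34 (SE 0.15, adjusted p = 0.592 by edgeR). Ratios of the 12 windows ran from -0.12 to 0.32 at T6 and from -0.16 to 0.34 at T48.

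**Figure D5:**
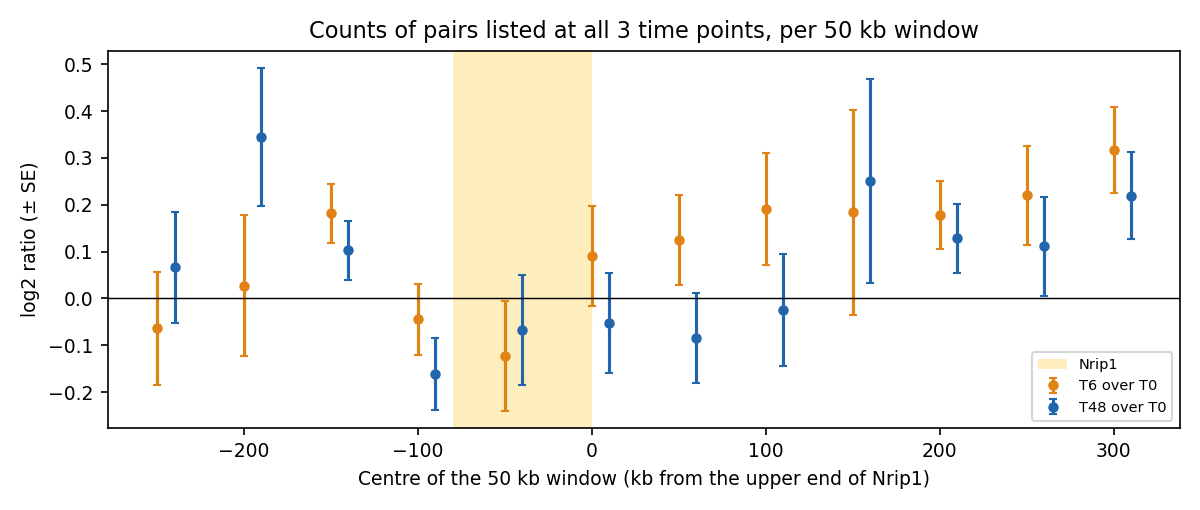
Log2 ratio of the summed count of pairs listed at all 3 time points in each 50 kb window of the locus (horizontal axis, kb from the upper end of Nrip1), T6 over T0 and T48 over T0, with bars of 1 SE from edgeR. The ratios lie between -0.16 and 0.34, and the promoter window is at 0.090 and -0.053.

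By single 5 kb bins, 76 of the locus were tested and 0 passed in edgeR, where 0% of 310,746 bins passed for T6 over T0, 0.00579% for T48 over T0 and 0.00418% for T48 over T6. At an unadjusted p under 0.05 there were 7, 2 and 3 of the 76 locus bins, against 2.47%, 6.11% and 5.41% of all bins. For T6 over T0, 56 of the 76 had a log2 ratio above 0 and 20 below. Each pair counts in both of its bins, so bins are not independent. DESeq2 called 0.0132%, 0.0621% and 0.0479% of all bins and the replicate block 0.0109%, 0.0496% and 0.0428%, with 0 at the locus in both. Of the promoter bins, that at 76,375,001 rests on 6 shared pairs and had 3.91 and 4.16 CPM (T0), 4.09 and 4.56 (T6) and 4.11 and 3.58 (T48). Its log2 ratio was 0.096 (SE 0.12) at T6 and -0.055 (SE 0.12) at T48, against 11, 21 and 26 listed contacts. The bin at 76,370,001, with 2 shared pairs, had ratios of 0.15 (SE 0.14) and 0.13 (SE 0.14), against 17, 15 and 27 contacts. The bins at 76,360,001 and 76,365,001 rest on the same 1 shared pair, with ratios of 0.18 (SE 0.31) and 0.23 (SE 0.30). At T48 the number of contacts at 76,375,001 was thus higher and its ratio slightly below 0, while at 76,370,001 both were higher. The ratios are small beside their SEs and rest mainly on short pairs. Whether number and strength took different courses was not tested.

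The shared pairs with the lowest unadjusted p in edgeR were short. The adjoining bins at 76,670,001 and 76,675,001, near the upstream edge of the locus, had 51 and 35 counts (T0), 146 and 32 (T6) and 131 and 69 (T48). The log2 ratio was 1.28 (SE 0.39, adjusted p = 0.842 by edgeR) at T48, and the T6 replicates differed from each other by more than T0 and T48 did. The bins at 76,175,001 and 76,180,001 had 54 and 35 counts (T0), 44 and 38 (T6) and 153 and 37 (T48), so the T48 value rests on replicate 1. Inside the gene, the adjoining bins at 76,320,001 and 76,325,001 had 48 and 35, 41 and 25, and 66 and 42 counts, a log2 ratio of 0.47 at T48 (adjusted p = 0.891 by edgeR). Just upstream of the promoter end, the bins at 76,395,001 and 76,405,001 had 48 and 35, 44 and 30, and 30 and 22 counts, with -0.57 at T48 (adjusted p = 0.884 by edgeR), and both T48 libraries had the lowest raw counts of their replicate number. At T6 the other pairs named by the rule had log2 ratios of 0.74 (76,455,001 with 76,475,001), 0.52 (76,230,001 with 76,240,001) and 0.47 (76,660,001 with 76,665,001), each with an adjusted p of 1.00.

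For pairs listed at a single time point, each count was divided by the lowest one of its replicate at the same distance. The lower of both multiples was kept for each pair. Its median was 1 at T0, T6 and T48, so in many of these pairs at least 1 replicate was at the lowest. Pairs listed at more time points were not compared by this measure. The highest multiples were reached by a few long contacts. At T0 this was the contact of the bins at 76,200,001 and 76,825,001, 625 kb apart across the gene, with 8 counts in both replicates, 2.67 times the lowest. At T6 these were the contact of 75,775,001 and 76,110,001, with 14 and 7 counts, and that of 76,255,001 and 76,850,001, 595 kb apart, with 7 counts in both replicates, both at 2.33 times. The T6 list also held the contact of the gene bin at 76,350,001 with 76,565,001, with 12 and 9 counts. At T48 it was that of 76,420,001 and 76,755,001, upstream of the gene, with 12 and 10 counts, at 2.5 times. The same gene bin at 76,350,001 had a T48 contact with 76,740,001, 390 kb upstream, with 10 and 7 counts, at 2.33 times the lowest. That partner lies in the stretch that held most upstream partners of the gene at 48 h.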

How the data were processed

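Hi-C libraries were analysed from a single deposited table. Per the file headers it gives the authors' raw count of read pairs for each pair of 5 kb bins in each of 6 libraries. Per the submitters' processing notes CASAVA 1.8.2, Bowtie2 and build mm9 were used. The restriction enzyme, the caller, its threshold and any coverage correction are not given in the sources used here, so bins with better coverage may have more listed contacts. Groups and replicates came from sample titles. Listed counts summed to between 23,003,295 and 50,154,643 per library. The 4 mitochondrial pairs were left out.

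Pairs listed at all 3 time points (542,645) were tested with edgeR 4.0.16 in R 4.3.3 (TMM, filterByExpr, quasi-likelihood F test, two-sided, no replicate block, all libraries in 1 fit) and adjusted by Benjamini-Hochberg over the genome at 0.05. The same fit was run on sums per 5 kb bin, 50 kb and 600 kb window, a pair within a window counted once. Fits were tested on simulated data. Changes in listed contacts per bin added 0.5 and were scaled to list length, for bins with at least 20 contacts. Listed CPM are relative to the library's sum of listed counts. Alternatives were DESeq2 1.42.0, its size factors, no filter, a replicate block, leaving out each library, other windows and distances, and a stricter list. Comparison of both sides of the gene, in tiles of 90 kb, was added after the data were seen.

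Members, lists and tests were chosen with earlier results of these data known. Named were the 4 pairs with the lowest p per comparison, the 4 with the highest mean CPM at 100 kb or more, the 3 highest single-time pairs per list, the 5 bins with most contacts and the 3 largest gains and losses per comparison. A planned comparison with other retinoic acid target genes was not made, since no mm9 annotation was used here. Promoters came from RefSeq (GRCm38.p6).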

Additional observations from a re-analysis of the deposited data

How the results depend on the processing

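Over 394 recomputed values for 49 results, 358 stayed on the same side and in the same direction or range. For single named windows and pairs, 188 stayed and 4 reversed, where an uncalled one had only to keep its sign. For the other results (calls, the whole locus, lists, shares and sides of the gene), 170 stayed, 24 moved and 8 reversed. Numbers of calls that remained 0 are among those that stayed. At the locus 0 pairs, 0 windows of 50 kb and 0 bins were called under any alternative run (no filter, other size factors or windows, DESeq2, a replicate block and 1 library left out in turn, lowest and highest 0 and 0). Over the genome the calls for T48 over T0 were 0, 94 and 1 pairs, 13, 116 and 310 windows of 50 kb, and 18, 193 and 154 bins with edgeR, DESeq2 and edgeR with a replicate block, and for T48 over T6 they were 0, 74 and 1, 9, 83 and 193, and 13, 149 and 133. For T6 over T0 they were 0, 1 and 0, 0, 16 and 12, and 0, 41 and 34. The labels give replicate numbers but do not say that these pair the samples. Deviations of libraries with the same number correlated at 0.345 to 0.408 over pairs and 0.861 to 0.938 over windows of 600 kb, but only 2 numbers exist, so the numbers were not taken as a pairing. With the replicate block the whole locus had log2 ratios of 0.11 (adjusted p = 0.597), 0.065 (adjusted p = 0.104) and -0.047 (adjusted p = 0.228) in edgeR for T6 over T0, T48 over T0 and T48 over T6, and the block changed no call at the locus. Leaving out each library gave 0.074 to 0.15, 0.033 to 0.092 and -0.088 to -0.011.

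The stricter list held 106, 91 and 117 contacts of the locus at T0, T6 and T48, and 319, 289 and 271 had both bins inside it, which turned the T48 to T0 ratio to 0.850. As differences in share of the locus count from T0, in percentage points, the gene with the upstream flank had -0.106 at T6 and -0.321 at T48 among pairs listed at all 3 time points, against 1.92 and 4.14 in the full lists, and 4.68 and 9.19 without pairs under 15 kb. The gene with the downstream flank at T48 had -0.945 among shared pairs, -4.19 without short pairs, and -2.75 and -2.30 within replicates 1 and 2. Within the gene these values were -0.864, -3.68, -1.87 and -2.47 at T6, and -0.536, -3.10, -2.23 and -2.82 at T48. Between both flanks they were 0.185 among shared pairs and -4.61 without short pairs at T6, and 0.109 and -8.06 at T48. Within a flank they were 1.69 at both times among shared pairs, against 4.56 and 5.15. The scaled log2 ratio of downstream partners of the gene turned to 1.03 at T6 and 1.22 at T48 in the stricter list, and to 1.19 at T48 with partners at least 200 kb away. The promoter window ran from -0.028 (without T0 replicate 1) to 0.21 at T6 and from -0.17 to 0.063 (without T0 replicate 2) at T48, where it was 0.033 without pairs under 15 kb. The window at 76,650,001 turned to -0.26 at T6 without those pairs. Shared pairs are by construction those listed throughout, and only 4 of the gene's shared upstream pairs were at least 100 kb long. The causes of the other turns were not tested.

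The depth limits what can be said of single contacts, since the median listed count was 5 to 7 and the lowest 3. Differences in the number of listed contacts have no replicate error, because both replicates were listed together.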

Other observations

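Over the 6 libraries, 194 of 49,375 other windows of 50 kb correlated with the promoter window at r over 0.9 in CPM of shared pairs. The most alike were the windows that start at 48,550,001 on chromosome 12 (r = 0.985), at 27,350,001 on chromosome 6 (r = 0.981) and at 38,300,001 on chromosome 2 (r = 0.980), named by rank. All windows share the libraries and their depth, so these values describe likeness over 6 points and have no p.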
